A study of Mus musculus with 78 samples.

Results

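The contractile genes of smooth muscle were followed in the lungs of mice kept awake or left to sleep after lights on. The 9 genes were Acta2, Myh11, Tagln, Cnn1, Actg2, Lmod1, Mylk, Smtn and Des, out of 18820 genes that the array annotation gives as the single gene of a probe set. They were taken by gene symbol, and where a gene had several probe sets the one with the highest mean over all arrays was to be kept. Each of the 9 had 1 probe set, so no measured value entered the choice of probe set. The genes themselves were chosen with earlier results of these data known. Lungs were taken from 35 sleep-deprived mice after 3 h (n = 9), 6 h (n = 9), 9 h (n = 9) and 12 h (n = 8) of gentle handling begun at lights on. They were also taken from 34 undisturbed mice that could sleep for 3 h (n = 9), 6 h (n = 7), 9 h (n = 9) and 12 h (n = 9), and from 9 undisturbed baseline mice at lights on. All groups were C57BL/6J males (C57BL\6 in the labels) about 10 weeks old, and all had been fed only in the dark for 14 days. Each array held the RNA of 1 animal, and sleep itself was not separated from rest. Handling belonged to the deprived groups alone, so the loss of sleep and the handling cannot be told apart.

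In smooth muscle a rise of calcium activates myosin light chain kinase, which phosphorylates myosin and lets it pull on actin filaments. In the lung this muscle lies around the conducting airways and in the walls of the pulmonary vessels, where it sets their width. Acta2 and Actg2 encode the actins of vascular and enteric smooth muscle, and Myh11 encodes the smooth muscle myosin heavy chain. Mylk encodes the kinase that switches the myosin on. Tagln (transgelin), Cnn1 (calponin) and Smtn (smoothelin) encode proteins that bind actin filaments, and Lmod1 (leiomodin) starts new ones. Des encodes desmin, the intermediate filament of all muscle, including the heart muscle that surrounds the pulmonary veins of mice. Many of these genes are switched on by serum response factor (Srf) with the coactivator myocardin at a DNA element called the CArG box. Probe sets differ in how strongly their probes bind, so levels were compared between mice and never between genes. The actin genes are very alike in their coding sequence, and signal shared between their probe sets could not be told apart here.

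The 250 bases before the annotated start are shown for Acta2 and Cnn1, the 2 genes that differed between the states over all hours. The sequences are from RefSeq (GRCm38.p6), read 5′ to 3′ on the strand of the gene, with CArG box matches in capitals.
Acta2 (chr19:34255374-34255623, minus strand): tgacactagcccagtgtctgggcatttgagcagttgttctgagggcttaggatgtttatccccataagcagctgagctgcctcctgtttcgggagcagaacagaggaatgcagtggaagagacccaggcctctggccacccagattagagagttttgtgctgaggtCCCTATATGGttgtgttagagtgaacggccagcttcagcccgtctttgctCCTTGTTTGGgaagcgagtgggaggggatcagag
Cnn1 (chr9:22099003-22099252, plus strand): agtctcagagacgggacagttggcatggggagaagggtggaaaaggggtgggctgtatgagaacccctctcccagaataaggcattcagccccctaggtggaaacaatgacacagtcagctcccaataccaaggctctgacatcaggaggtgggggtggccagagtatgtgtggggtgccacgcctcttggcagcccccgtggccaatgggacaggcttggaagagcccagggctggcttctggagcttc
The Acta2 stretch holds CCCTATATGG, which begins at position -84 from the start, and CCTTGTTTGG, which begins at -34. Both are CArG boxes with 1 C or G within the inner stretch of A and T. A box with at most 1 such letter, the exact box included, occurs at least once in 8.59% of the 32851 annotated promoter windows of this length. The exact box occurs in 1.47% of the windows and was found in none of the 6 of the 9 genes with an entry (Acta2, Cnn1, Lmod1, Mylk, Smtn and Des). The pattern reads the same on both strands. The Cnn1 window holds no such match, which says only that these letters are not in this window.

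The values were log2 intensities of 35556 probe sets on 78 arrays, with array medians from 6.45 to 6.78. The labels number the arrays, and the numbers fall into 4 runs in which the order of conditions starts again. Of these runs, 2 hold late mice alone (9 h and 12 h), 1 holds all 9 baseline mice with 3 h and 6 h mice, and the last holds 3 h and 6 h mice, so the step from the early to the late hours cannot be told apart from the change of run. Each run holds both states. The order of the group labels was laid along the array numbers. The absent number 9 got no place, and the absent numbers 37 and 42 kept theirs. The labels do not give this layout. In it the number of 15 arrays falls on a neighbouring condition. By their expression of 200 probe sets chosen on the other arrays, all 15 lay nearest to the condition of their number. Of 62 arrays that kept their group, 59 lay nearest to the group of their label. These 62 include array 80, to which the layout gives no condition. Groups follow the labels throughout, and results are also given without these 15 arrays and array 81, which stands out of order in the labels. Array 81 is labelled as 12 h of sleep deprivation and lay nearest to the mice after 6 h of sleep.

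Over all hours, Acta2 and Cnn1 were higher after sleep deprivation than after sleep. Acta2 was 11.7% higher and Cnn1 18.4% higher on the linear scale, while Myh11, Mylk and Smtn had differences close to 0. So 2 of the 9 genes passed an adjusted p of 0.01 in limma, both higher, where 2.7% of all probe sets were higher and 5.59% differed in either direction. The median difference of the 9 genes was 0.10 on the log2 scale, against 0.005 for all probe sets. In bulk lung RNA, a change in the share of smooth muscle cells and a change in RNA per cell cannot be told apart.

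Acta2 ranged from 11.92 to 12.39 in the 35 sleep-deprived mice, with a median of 12.16, and from 11.87 to 12.24 in the 34 sleeping mice, with a median of 12.00. Of the sleep-deprived mice, 31 lay above the median of the sleeping mice. The means differed by 0.16 (SE 0.028, adjusted p = 3.99e-05 from limma). Cnn1 ranged from 10.27 to 11.26 in sleep-deprived mice, with a median of 10.82, and from 10.14 to 11.15 in sleeping mice, with a median of 10.56. The ranges overlapped widely, but 29 of the 35 sleep-deprived mice were above the median of the sleeping mice, and the means differed by 0.24 (SE 0.052, adjusted p = 0.00066).

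Tagln and Actg2 had differences of similar size that did not pass. The difference was 0.15 for Tagln (SE 0.05, adjusted p = 0.0337 in limma) and 0.18 for Actg2 (SE 0.067, adjusted p = 0.0601). Tagln passed without the 16 arrays (0.22, adjusted p = 0.00186 from limma), with array weights (0.20, adjusted p = 0.00107), with the 4 runs as a block (0.16, adjusted p = 0.00558) and with time as a factor (0.16, adjusted p = 0.00581). It did not pass with 5 runs as a block (adjusted p = 0.0209), with the filter on mean intensity (0.0237) or with trended and robust variances (0.0325). Lmod1 differed by 0.10 (95% interval 0.00 to 0.20) and Des by 0.09 (-0.04 to 0.22). For the other genes the intervals were narrow, at -0.10 to 0.10 for Myh11, -0.06 to 0.04 for Mylk and -0.08 to 0.04 for Smtn. Within the 4 runs, sleep-deprived minus sleeping mice gave 0.25, 0.24, 0.10 and 0.05 for Acta2 and 0.33, 0.29, 0.25 and 0.13 for Cnn1. The late hours fill the first 2 of these runs.

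**Figure D1:**
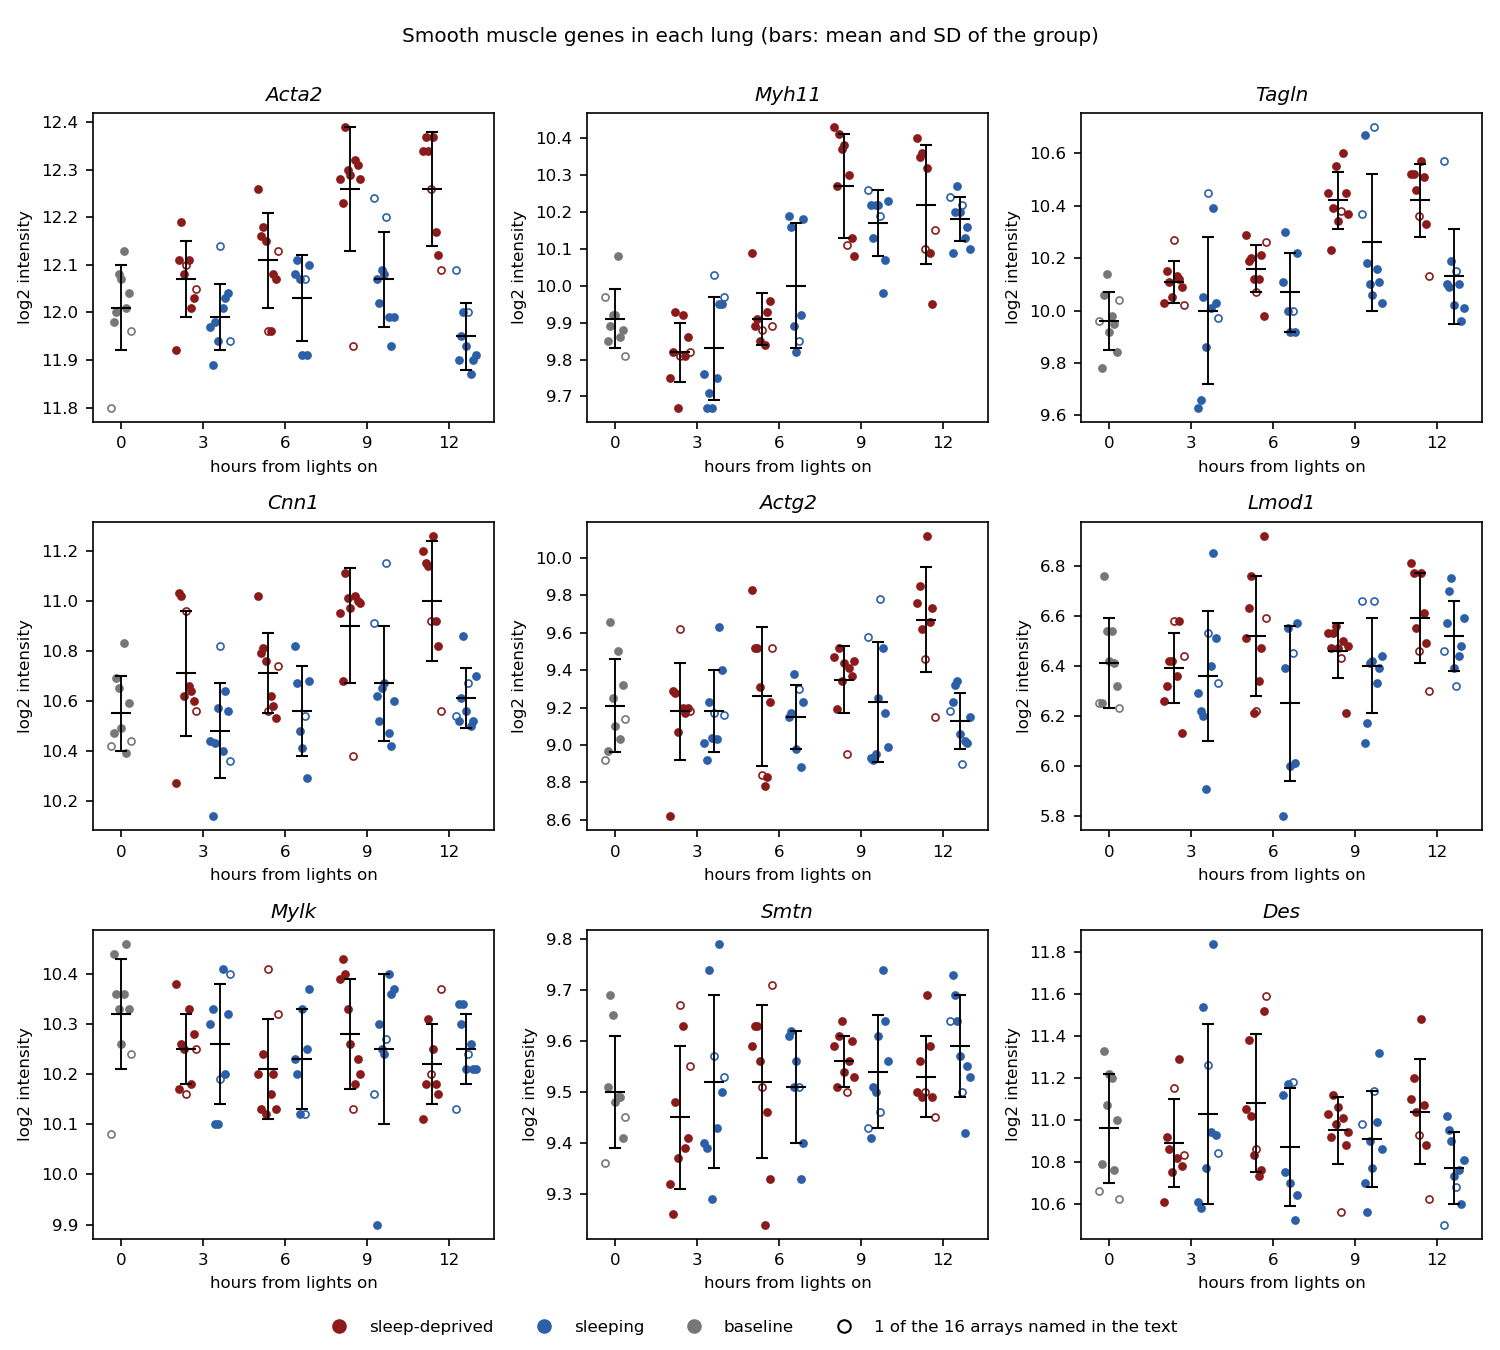
Log2 intensity (vertical axes) of the 9 genes, 1 point a lung, by hours since lights on (horizontal axes). Dark red marks sleep-deprived, blue sleeping and grey baseline mice. Bars give the mean and SD, and open points the 16 arrays that were left out in an alternative. At 12 h the Acta2 points of sleep-deprived mice (12.09 to 12.37) all lie above those of sleeping mice (11.87 to 12.09), while the Mylk points of the groups overlap at every hour.

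By hour, Acta2 was higher in sleep-deprived mice at 9 h and at 12 h. At 3 h it had a lowest, median and highest value of 11.92, 12.08 and 12.19 in sleep-deprived mice, against 11.89, 11.98 and 12.14 in sleeping mice. At 6 h the values were 11.96, 12.13 and 12.26 in sleep-deprived mice and 11.91, 12.07 and 12.11 in sleeping mice. The groups overlapped at both hours, and the differences of 0.07 and 0.07 (SE 0.046 and 0.05) had adjusted p of 0.323 and 0.683 from limma. None of the 9 genes passed at 3 h, where 6.11% of all probe sets did, or at 6 h, where 0.0591% did. At an unadjusted p under 0.05, Cnn1 passed at 3 h (difference 0.22) and Lmod1 at 6 h (0.26), both from limma.

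At 9 h, Acta2 had values of 11.93, 12.29 and 12.39 (lowest, median and highest) in sleep-deprived mice, against 11.93, 12.07 and 12.24 in sleeping mice. Of the 9 sleep-deprived mice, 7 lay above all sleeping mice, and the lowest was array 20, which is among the 15 whose number falls on another condition. The difference was 0.19 (SE 0.046, adjusted p = 0.00631 from limma), and Acta2 was the 1 gene of the 9 to pass, where 2.56% of all probe sets did and 1.15% were higher. Without the 16 arrays the groups no longer overlapped, at 12.23 to 12.39 in sleep-deprived mice and 11.93 to 12.09 in sleeping mice. Cnn1 then passed as well (0.40, adjusted p = 0.000929 from limma), where 5.98% of all probe sets did.

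At 12 h, the 8 sleep-deprived mice had Acta2 values from 12.09 to 12.37 with a median of 12.30, and the 9 sleeping mice from 11.87 to 12.09 with a median of 11.93. All 8 lay above all 9, and the 2 mice nearest to each other were on array 81 and array 15, both among the 16. Array 81 was the lowest sleep-deprived mouse. The difference was 0.30 (SE 0.048, 23.5% higher, adjusted p = 0.000512 from limma). This was the 1 gene of the 9 to pass at 12 h, where 0.0816% of all probe sets did and 0.0281% were higher. Acta2 had the smallest p of all 35556 probe sets at this hour.

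Actg2, Cnn1 and Tagln followed Acta2 in order of p at 12 h, and the differences of Actg2 and Cnn1 were larger than that of Acta2. Actg2 had values of 9.15, 9.69 and 10.12 (lowest, median and highest) in sleep-deprived mice and 8.90, 9.15 and 9.34 in sleeping mice. Of the 8 sleep-deprived mice 7 lay above all sleeping mice, and the difference was 0.54 (SE 0.124, adjusted p = 0.0292 from limma). Cnn1 had values of 10.56, 11.03 and 11.26 in sleep-deprived mice and 10.50, 10.56 and 10.86 in sleeping mice. For Cnn1, 6 of 8 lay above all sleeping mice, and the difference was 0.39 (SE 0.095, adjusted p = 0.0467). Tagln had values of 10.13, 10.48 and 10.57 in sleep-deprived mice and 9.96, 10.10 and 10.57 in sleeping mice. Its difference was 0.29 (SE 0.082, adjusted p = 0.114), and the highest sleeping mouse was array 15.

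Without the 16 arrays, 4 of the 9 genes passed at 12 h, where 0.442% of all probe sets did. These were Acta2 (0.36, adjusted p = 9.81e-07 from limma), Cnn1 (0.47, adjusted p = 0.00205), Tagln (0.42, adjusted p = 0.00221) and Actg2 (0.63, adjusted p = 0.00291). Of these, the groups did not overlap for Acta2 (12.12 to 12.37 in sleep-deprived mice, 11.87 to 12.00 in sleeping mice), Tagln (10.33 to 10.57, against 9.96 to 10.19 in sleeping mice) and Actg2 (9.62 to 10.12, against 9.01 to 9.34 in sleeping mice). How many of all probe sets had groups that did not overlap was not counted at any hour. With limma's array weights over all arrays, which lower the weight of arrays that depart from their group, these 4 genes passed at 12 h too, where 1.15% of all probe sets did. Limma's F test of whether the difference depended on the hour passed for 0 of the 9 genes, where 0.0562% of all probe sets passed. Acta2 had the smallest p (adjusted p = 0.0746), and Acta2 and Actg2 were the 2 genes under 0.05 unadjusted. Without the 16 arrays Acta2 passed this test, as did 0.906% of all probe sets.

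**Figure D2:**
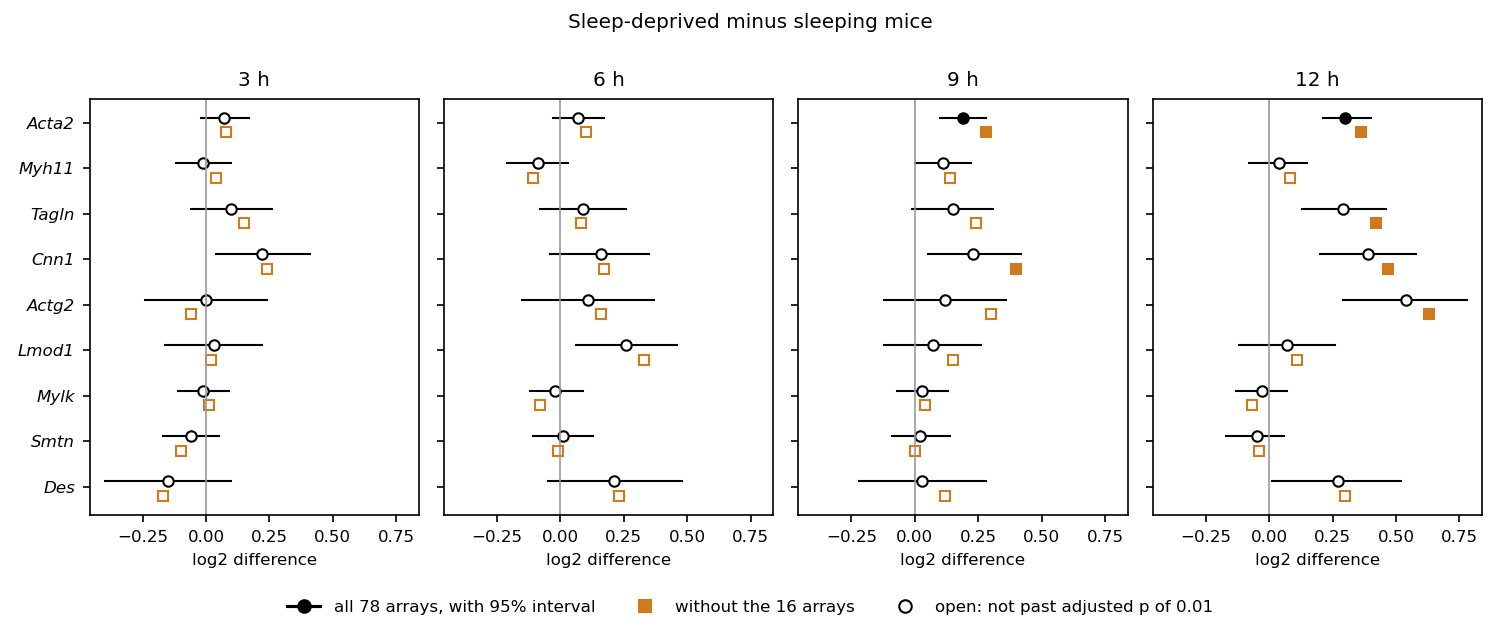
Difference between sleep-deprived and sleeping mice on the log2 scale (horizontal axes) for each gene (vertical axis) at 3, 6, 9 and 12 h, as circles with 95% intervals over all arrays and as squares without the 16 arrays, filled where the adjusted p from limma was under 0.01. Filled circles stand for Acta2 alone, at 9 h (0.19) and 12 h (0.30), and filled squares for Acta2 and Cnn1 at 9 h and for Acta2, Tagln, Cnn1 and Actg2 at 12 h.

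Against the baseline mice, 4 of the 9 genes were higher after the late hours of sleep deprivation and 1 after the late hours of sleep. After 9 h of sleep deprivation Acta2 (0.25), Myh11 (0.36), Tagln (0.45) and Cnn1 (0.35) were higher than at baseline, where 12.9% of all probe sets differed and 6.37% were higher. After 12 h the same 4 genes were higher, by 0.25, 0.31, 0.46 and 0.45, where 3.54% of all probe sets differed and 1.73% were higher. Their adjusted p were from 1.09e-06 to 0.00365 in limma, and that of Actg2 at 12 h was 0.0106 (0.46, SE 0.124). After sleep only Myh11 passed, at 9 h (0.26, adjusted p = 0.00114 from limma) and at 12 h (0.27, adjusted p = 0.000323), where 2.55% and 4.17% of all probe sets did and 1.39% and 2.5% were higher. None of the 9 passed after 3 h or 6 h, with 1.27% and 0.231% of all probe sets passing after sleep deprivation and 0.0112% and 0.228% after sleep. At an unadjusted p under 0.05 in limma, 0 of the 9 passed after 3 h of either state or 6 h of sleep, and Acta2 (0.10), Tagln (0.20) and Mylk (-0.11) did after 6 h of sleep deprivation. All these comparisons share the 9 baseline mice. With the 4 runs as a random block, the 4 genes passed at 9 h and 12 h of sleep deprivation, where 9.96% and 2.72% of all probe sets did, and Myh11 at 9 h and 12 h of sleep, where 1.67% and 3.24% did. No run holds both baseline and late mice, so this block does not take out a step between runs.

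Myh11 differed by hour in both states. Its lowest, median and highest values were 10.08, 10.30 and 10.43 after 9 h and 9.95, 10.23 and 10.40 after 12 h of sleep deprivation. They were 9.98, 10.22 and 10.26 after 9 h and 10.09, 10.20 and 10.27 after 12 h of sleep, and 9.81, 9.89 and 10.08 at baseline. Of the mice after 12 h, 7 of 8 sleep-deprived and 9 of 9 sleeping mice lay above all baseline mice. The late groups of both states lay together at the top of the order of means, from 10.17 to 10.27. The means of the early groups and the baseline were lower, down to 9.82, and this step falls together with the change of run. At no hour did Myh11 pass between the states, and the 95% interval at 12 h was -0.08 to 0.15.

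Acta2 had another order. Its means were 12.26 ± 0.13 (SD, n = 9) after 9 h and 12.26 ± 0.12 (SD, n = 8) after 12 h of sleep deprivation, followed by 12.11 ± 0.10 (SD, n = 9) after 6 h and 12.07 ± 0.08 (SD, n = 9) after 3 h. In sleeping mice the means were 11.99 ± 0.07, 12.03 ± 0.09, 12.07 ± 0.10 and 11.95 ± 0.07 (SD, n = 9, 7, 9 and 9) after 3, 6, 9 and 12 h, and the baseline mean was 12.01 ± 0.09 (SD, n = 9). The step between the late and the early hours of sleep deprivation was larger than the SD of the groups on either side. All other neighbours in the order differed by less than the smallest SD of 0.07. After 12 h of sleep Acta2 stood 0.06 below baseline (95% interval of the difference -0.15 to 0.03, adjusted p = 0.576 from limma).

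**Figure D3:**
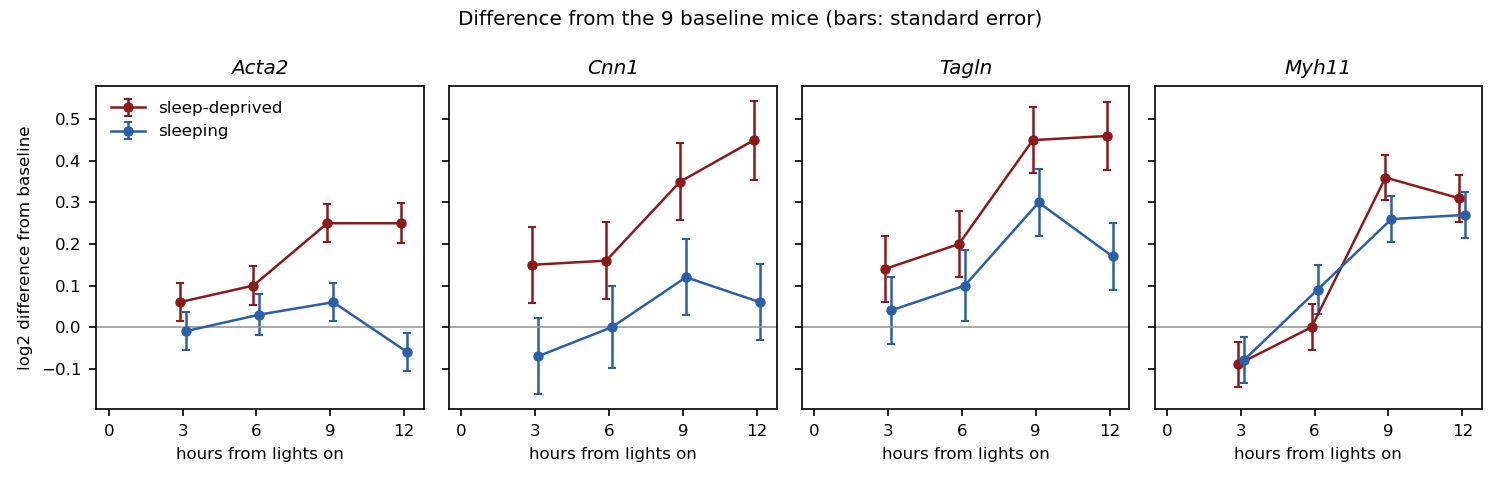
Difference from the 9 baseline mice on the log2 scale (vertical axis) of Acta2, Cnn1, Tagln and Myh11 against hours from lights on (horizontal axes), dark red for sleep-deprived and blue for sleeping mice, with bars for the standard error. At 12 h the curves of Acta2 stand at 0.25 and -0.06 and those of Cnn1 at 0.45 and 0.06, while those of Myh11 stand at 0.31 and 0.27.

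As a linear slope over the hours, 5 of the 9 genes rose over sleep deprivation and 1 over sleep. Over 12 h of sleep deprivation the slopes were 0.28 for Acta2, 0.43 for Myh11, 0.50 for Tagln, 0.43 for Cnn1 and 0.43 for Actg2, with adjusted p from 2.95e-08 to 0.00981 in limma, where 8.41% of all probe sets had a slope and 4.27% a positive one. Over 12 h of sleep only Myh11 rose (0.35, adjusted p = 8.22e-06 from limma), where 5.44% of all probe sets had a slope and 3.25% a positive one. The slopes share the baseline mice. In a model with a common intercept, the slope over sleep deprivation was steeper than that over sleep for Acta2 (0.27), Tagln (0.26), Cnn1 (0.37) and Actg2 (0.35), with adjusted p from 2.67e-07 to 0.00671 in limma, where 3.1% of all probe sets had slopes that differed and 1.24% differed in this direction. For Myh11 the slopes differed by 0.04 (95% interval -0.06 to 0.14). With the 4 runs as a block, no probe set on the array had a slope in either state (0 of 35556 in limma), so this model gives no separate reading of the 9 genes. The difference between the slopes passed with this block for the same 4 genes, where 3.61% of all probe sets did, and with 5 runs as a block for Acta2, Tagln and Cnn1, where 2.81% did.

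Mylk, Smtn, Des and Lmod1 passed in none of these comparisons. Over the 9 groups the means of Mylk ran from 10.21 to 10.32 and those of Smtn from 9.45 to 9.59. Des was more variable, with single lungs from 10.50 to 11.84 and an SD of 0.43 among mice after 3 h of sleep. Its difference was 0.27 at 12 h (95% interval 0.01 to 0.52, adjusted p = 0.637 from limma). Lmod1, the dimmest of these probe sets relative to the array (38.7th percentile of means, against the 76.5th or above for the others), ran from 5.80 to 6.92 in single lungs. Inequality of variance over the baseline and sleeping groups passed the tests of Bartlett and Brown-Forsythe for none of the 9 genes, where 0.112% of all probe sets passed. At an unadjusted p, 0 of the 9 were under 0.05 by Bartlett's test.

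Acta2 and Cnn1 were also set against Myh11 within each lung, a comparison chosen after their differences between the states had been seen, and given as a description. The log2 value of Acta2 minus that of Myh11 was 2.12 ± 0.15 (SD, n = 35) in sleep-deprived mice and 1.96 ± 0.18 (SD, n = 34) in sleeping mice, and the mean gap was wider by 0.16. Cnn1 minus Myh11 was 0.77 ± 0.20 in sleep-deprived and 0.53 ± 0.17 in sleeping mice, and the mean gap was wider by 0.24. These values equal the differences of Acta2 and Cnn1 themselves, since Myh11 had a difference close to 0. Within the 4 runs the differences were 0.11, 0.24, 0.12 and 0.13 for Acta2 minus Myh11 and 0.19, 0.29, 0.27 and 0.20 for Cnn1 minus Myh11, all higher in sleep-deprived mice.

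From lung to lung within a group, most of the genes moved together. Over the 78 lungs with group means removed, Myh11 varied with Acta2 (Pearson r = 0.59, Spearman rho = 0.61), with Cnn1 (r = 0.57, rho = 0.58), with Tagln (r = 0.45, rho = 0.49), with Lmod1 (r = 0.35, rho = 0.38) and with Actg2 (r = 0.30, rho = 0.30). Permutation p within groups, adjusted over the 8 relations, were from 4e-05 to 0.0104 for r and from 4e-05 to 0.0148 for rho. For relations the threshold was an adjusted p of 0.05. Actg2 for both measures and Lmod1 for r were not under 0.01. Des (r = 0.23, rho = 0.24, adjusted permutation p = 0.0863 and 0.0685), Smtn (r = 0.16, rho = 0.19, adjusted permutation p = 0.187 and 0.128) and Mylk (r = 0.07, rho = 0.07, adjusted permutation p = 0.575 and 0.555) did not pass. Without the 2 lungs farthest from the median of Myh11, r was from 0.33 to 0.55 for the 5 that passed. Within the 4 runs r was 0.75, 0.54, 0.57 and 0.62 for Acta2 and 0.80, 0.54, 0.67 and 0.60 for Cnn1, and for Actg2 it was 0.53, 0.15, 0.33 and 0.57.

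Among all pairs, Acta2 and Cnn1 were the closest (r = 0.83), followed by Cnn1 and Actg2 (0.71), Actg2 and Des (0.67) and Acta2 and Actg2 (0.66). Mylk stood apart, with r of -0.35 against Tagln and -0.10 against the mean of the other 8 genes, while for those 8 the same measure ran from 0.48 for Myh11 to 0.80 for Actg2. These pair values are a description over lungs of which many share an array run.

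**Figure D4:**
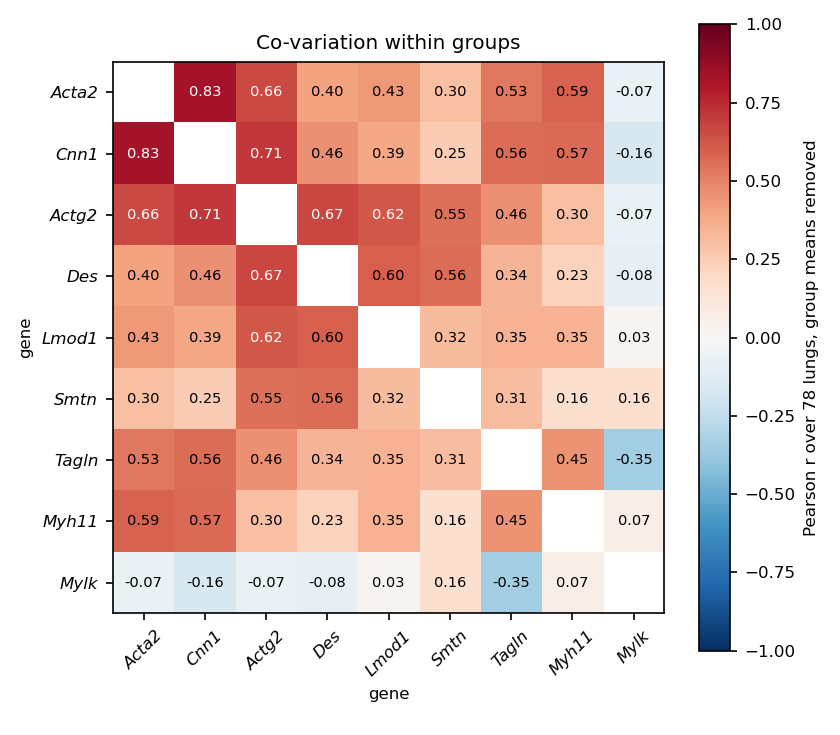
Pearson r between the 9 genes (both axes) over 78 lungs after removal of group means, with red for positive and blue for negative values. Acta2 and Cnn1 have the highest value (0.83), and the row of Mylk runs from -0.35 with Tagln to 0.16 with Smtn.

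The genes outside the 9 whose values were most like their mean over the 78 lungs were Synpo2 (r = 0.75), Flnc (0.72), Lgr6 (0.70), Kcnmb1 (0.70), Hspb7 (0.68), Pdlim3 (0.68), Efhd1 (0.67), Galnt16 (0.67), Hspb6 (0.66) and Ybx3 (0.66), each with group means removed. Synpo2 (synaptopodin-2) and Flnc (filamin C) encode actin-binding proteins, Kcnmb1 the beta subunit of a calcium-activated potassium channel of smooth muscle, and Hspb6 and Hspb7 small heat shock proteins of muscle. Flnc and Kcnmb1 were the nearest to a difference between the states, by 0.42 and 0.18 (adjusted p = 0.0104 and 0.0148 from limma). Differences were negative for Hspb6 (-0.18), Lgr6 (-0.13), Pdlim3 (-0.11), Efhd1 (-0.08), Synpo2 (-0.02) and Hspb7 (-0.02), and positive for Galnt16 (0.07) and Ybx3 (0.04). The mean over the 9 genes was of unscaled values, so the more variable genes weighed more in it.

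Genes of the wider machinery of smooth muscle passed in small numbers and in both directions. Over all hours 5.59% of all probe sets differed between the states, with 2.7% higher and 2.89% lower in sleep-deprived mice. Of 40 other contractile and cytoskeletal genes measured, 3 were higher in sleep-deprived mice over all hours and none lower, with a median difference of 0.01. These were Pdlim5 (0.12, adjusted p = 0.000134 from limma), a scaffold at actin anchors, and the integrin chains Itga5 (0.15, adjusted p = 0.00123) and Itga7 (0.26, adjusted p = 0.00526). Of 18 genes of Srf and its partners, Heyl, a target of Notch signals, was higher (0.25, adjusted p = 0.000332) and Mef2c, a muscle and endothelial transcription factor, was lower (-0.25, adjusted p = 0.000493). Of 13 immediate early genes that Srf also drives, Egr1 was lower (-0.38, adjusted p = 0.00629) and none higher. The median of these 13 was -0.143 over all hours, against 0.005 for all probe sets, with 9 at an unadjusted p under 0.05, and at 6 h it was -0.277, with 8. Of 30 genes for the calcium, kinase and phosphatase control of contraction, only Arhgef12, an activator of RhoA, differed (0.10, adjusted p = 0.000605). At 12 h 0 genes of these 4 lists passed in limma, where 0.0816% of all probe sets did. At an unadjusted p under 0.05 in limma there were 6, 2, 1 and 2, in the order given. The medians of the 4 lists lay between -0.01 and 0.07. Without the 16 arrays, 1 of the 40 and 1 of the 18 genes were higher at 12 h, where 0.217% of all probe sets were. Of the 13 and the 30 genes 0 then passed.

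Receptors through which transmitters and prostanoids contract or relax smooth muscle went both ways. Among all probe sets 5.59% differed between the states over all hours. Of 24 measured, Tacr1, the receptor for substance P, was higher in sleep-deprived mice, with 6.27 ± 0.23 (SD, n = 35) against 5.93 ± 0.17 (SD, n = 34) in sleeping mice (0.34, adjusted p = 1.08e-06 from limma). Ptgir, the prostacyclin receptor, was lower, with 6.50 ± 0.21 in sleep-deprived and 6.81 ± 0.27 in sleeping mice (-0.31, adjusted p = 9.07e-05). Also lower were Tbxa2r, the thromboxane receptor (-0.23, adjusted p = 0.000652), and Ednrb, an endothelin receptor that endothelium also carries (-0.11, adjusted p = 0.00377). The median of the 24 was -0.055. Both means of Tacr1 lie below the range of array medians (6.45 to 6.78), and those of Ptgir lie in or near it. By hour, 2 of the 24 were higher and 3 lower at 3 h, where 6.11% of all probe sets passed. At 6 h, 9 h and 12 h 0 passed in limma, where 0.0591%, 2.56% and 0.0816% of all probe sets did. At an unadjusted p under 0.05 in limma there were 5, 6 and 5 of the 24. Without the 16 arrays, 2 were higher and 1 lower at 6 h, where 2.51% of all probe sets passed. At 9 h 2 were then higher and 2 lower, where 5.98% passed, and at 12 h 0 passed, where 0.442% did.

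Markers of other cells in the sample were read beside these results, over all hours, where 5.59% of all probe sets differed and 2.7% were higher. Of 12 pericyte genes, 2 were higher in sleep-deprived mice, Higd1b (0.27, adjusted p = 0.000303 from limma) and Anpep (0.15, adjusted p = 0.00399), with a median of -0.008. Their mean level ran from 8.81 to 9.07 after 12 h of sleep deprivation and from 8.84 to 9.03 after 12 h of sleep. Of 15 fibroblast genes, Pdgfra (0.16) and Fgf10 (0.17) were higher and Lum was lower (-0.38). Of 15 endothelial genes, Pecam1 was higher (0.06) and Emcn (-0.27) and Ednrb lower. Among airway and alveolar epithelial genes, Muc5b, a mucin, was higher by 0.39 and Sftpd, a surfactant protein, by 0.14, the 2 that passed among 34. Upk1b was the 1 of 9 mesothelial genes that was higher (0.19), and none of the 17 cartilage genes of trachea and bronchi passed in limma, nor at an unadjusted p under 0.05 (0 genes).

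Tissue from around the lung varied strongly from lung to lung. The mean level of 14 genes of the stratified epithelium of the oesophagus ran from 5.05 to 8.96 in single sleep-deprived and from 5.07 to 8.63 in single sleeping mice, and that of 16 skeletal muscle genes from 5.68 to 9.90 in sleep-deprived and from 5.65 to 9.48 in sleeping mice. At 9 h the sleep-deprived minus sleeping differences of all 14 oesophageal genes were negative (median -1.18, 1 past the threshold), and at 12 h all 14 were positive (median 0.64, 0 past the threshold in limma and 2 at an unadjusted p under 0.05). At 12 h the medians were also above 0 for 16 skeletal muscle genes (0.335), 11 fat genes (0.26) and 15 cardiac muscle genes (0.05), with 0 past the threshold in limma in each (0, 2 and 1 at an unadjusted p under 0.05). All 9 mesothelial genes had positive differences at 12 h (median 0.177, 0 past the threshold in limma and 3 at an unadjusted p under 0.05), and the 2 haemoglobin genes measured had negative ones (median -0.412, 0 past the threshold and 2 at an unadjusted p under 0.05). Without the 16 arrays, 2 of the 9 mesothelial genes were higher at 12 h, where 0.217% of all probe sets were. Of the oesophageal, skeletal muscle, fat, cardiac and haemoglobin genes 0 then passed at this hour. The part of these tissues and of blood in the differences of Acta2, Actg2, Cnn1, Tagln and Des was not tested. Of 11 genes listed for thymus and lymph node, Cd3e (-0.43) and Cd3g (-0.46) were lower over all hours, and of 9 macrophage genes Cd68 was lower (-0.24). In the same comparison 2.89% of all probe sets were lower. Which tissue the Cd3e and Cd3g signal came from was not tested. The mean level of the 11 genes ran from 5.82 to 9.29 in single lungs after 12 h of sleep deprivation (SD 1.17). Without the 16 arrays, 1 of the 11 was lower over all hours, and 3 macrophage genes were higher and 2 lower. Of all probe sets 8.63% then differed.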

How the data were processed

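Lung RNA of 78 mice was hybridised to Affymetrix Mouse Gene 1.0 ST arrays, 1 array a mouse. The deposited values are log2 intensities that the authors made by RMA over all lung arrays (background correction, quantile normalization and a summary of the probes in each set). They lack a decimal point, which was put back behind the first digit, or behind the second if the value starts with 1, giving 2.27 to 13.85. From these values, groups were compared with limma 3.58.1 in R 4.3.3, with Benjamini-Hochberg adjustment over 35556 probe sets and a threshold of 0.01. The state effect left out baseline mice and had no term for time, and comparisons by hour and with baseline came from 1 fit of 9 groups. Slopes were fitted per 12 h. In the annotation 21218 probe sets carry 1 gene symbol, 1881 carry several and 12457 carry none. Precision is limited by the number of mice, since an array has no depth.

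The genes and lists were chosen with earlier results of these data known. Genes named outside the 9 are up to 4 a list with the smallest adjusted p past the threshold between the states, and the 10 most like the mean of the 9. Lists were those for the wider contractile machinery, Srf, receptors and the cell types of lung and neighbouring tissue. Alternatives were to leave out the 16 arrays, 4 or 5 runs as a block, a mean log2 intensity of at least 6, array weights, trended and robust variances, time as a factor and a common intercept. The random block, the test of the slope difference and the comparison of Acta2 and Cnn1 with Myh11 within arrays were added after seeing the data. Simulated data with known changes were used to try the state effect, the slope over sleep deprivation and the slope difference. They were also used for 12 h of sleep deprivation against baseline and against sleep, the latter also with 4 runs as a block. The other fits and tests were not tried in this way. The simulated noise was normal and held no run effect.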

Additional observations from a re-analysis of the deposited data

Results flagged for a closer look

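For 4 of the 9 genes the slope over the hours differed between sleep deprivation and sleep, by a test of the difference itself. Over 12 h it was steeper under sleep deprivation by 0.27 for Acta2, 0.26 for Tagln, 0.37 for Cnn1 and 0.35 for Actg2, all under an adjusted p of 0.01 in limma. Among all probe sets 3.1% had slopes that differed and 1.24% differed in this direction. The test of the slope difference was added after seeing the data. Within groups, 6 of the 81 combinations of gene and group held a mouse far from the others by Dixon's test, where chance gives about 1 in 20. After 9 h of sleep deprivation the lowest mouse was at 11.93 for Acta2 and at 10.56 for Des, both on array 20, and at 6.21 for Lmod1 on array 22. After 6 h of sleep deprivation the highest mouse for Myh11 was at 10.09, on array 47. After 12 h of sleep the highest mouse for Tagln was at 10.57, on array 15, and after 9 h of sleep the lowest for Mylk was at 9.90, on array 11. Arrays 15 and 20 are among the 15 whose number falls on another condition.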

How the results depend on the processing

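Of the values for single genes, 211 kept their direction and side of the threshold under an alternative, 18 came to pass, 12 no longer passed and 3 reversed. Without the 16 arrays, 2 genes passed at 9 h (Acta2 and Cnn1), where 5.98% of all probe sets did, and 4 at 12 h (0.442%). In the test of a change over the hours 1 gene (Acta2) then passed, where 0.906% of all probe sets did. With all arrays these 3 shares were 2.56%, 0.0816% and 0.0562%, so more probe sets passed across the array as well. With array weights, 2 passed at 9 h (Acta2 and Tagln, where 5.42% of all probe sets did) and 4 at 12 h (1.15%). With 4 or 5 runs as a block, 0 genes had a slope over sleep or over sleep deprivation, and of all 35556 probe sets 0 and 0 had one with 4 runs and 0 and 1 with 5. Slopes then reversed for Tagln over sleep (-0.01 with 4 and -0.01 with 5 runs) and for Myh11 over sleep deprivation (-0.03 with 4 runs), and since the runs follow the hours, the block takes up the step from early to late hours. A common intercept gave 2 genes with a slope over sleep (Myh11 and Tagln, where 9.68% of all probe sets did), and the filter on mean intensity gave 2 against baseline after 9 h of sleep (Myh11 and Tagln, where 4.86% did). Centring on group and run turned the relation of Myh11 and Mylk to r = -0.11 and brought that of Myh11 and Des to 0.29, past an adjusted p of 0.05 in a permutation test; the cause was not tested. With a fixed run block, 9 h and 12 h could not be compared with baseline, since no run holds both. Another probe set could not be tried, as each gene has 1. No paired analysis was possible because the array numbers name single arrays and pair no mice across groups.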

Other observations

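The level of Acta2 was set against the mean level of each of the 20 other lists over the 78 lungs, with group means removed. It varied with the other contractile and cytoskeletal genes (r = 0.44, rho = 0.47, permutation p = 5e-05 and 9e-05, adjusted p = 0.001 and 0.0016 over 20 relations), with the calcium, kinase and phosphatase genes (r = 0.41, rho = 0.45, permutation p = 0.00021 and 0.00016, adjusted p = 0.0021 and 0.0016), with Srf and its partners (r = 0.39, rho = 0.41, permutation p = 0.00059 and 0.00037, adjusted p = 0.00393 and 0.00247) and with cardiac muscle genes (r = 0.30, rho = 0.31, permutation p = 0.00638 and 0.0084, adjusted p = 0.0319 and 0.042). Without the 2 lungs farthest from the median of Acta2, r was 0.41, 0.45, 0.40 and 0.30 in the same order. Within the 4 runs r was 0.40, 0.36, 0.56 and 0.46 for the other contractile genes and 0.33, 0.14, 0.39 and 0.16 for the cardiac genes. The relation to pericyte genes (r = 0.21), fibroblast genes (0.28), oesophageal epithelium (0.15), skeletal muscle (0.25) and fat (0.14) did not pass an adjusted p of 0.05.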
